A study of Arabidopsis thaliana with 16 samples.

Results

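The response of Arabidopsis roots to cycloheximide (CHX, an inhibitor of protein synthesis) in the absence of added auxin is described here from 8 of the 16 arrays of the study. All seedlings carried the gPUCHI:GR transgene in the puchi-1 mutant, a background in which the AP2/ERF transcription factor PUCHI is supplied only as a fusion to the glucocorticoid receptor domain, expressed from PUCHI's own regulatory region. Roots of seedlings 5 days old were collected after 4 h. The arrays with CHX were 2 of CHX alone (10 µM) and 2 of DEX+CHX (2 µM dexamethasone with 10 µM CHX), and they were set against 2 mock arrays (0.1% DMSO) and 2 arrays of DEX alone (2 µM). The DEX state was balanced over both arms and entered the model as a block, so each arm held 4 arrays. The 8 arrays with naphthaleneacetic acid (NAA, a synthetic auxin, 1 µM), in the same 4 combinations, served as a second set with no array in common. All groups came from 1 transgenic line, no roots without the transgene were included in these groups, and 4 h was the only time point.

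Cycloheximide stops translation on the cytosolic ribosome by blocking the movement of tRNAs through it, while the ribosomes of plastids and mitochondria are insensitive. In hormone studies it is added with an inducible transcription factor so that transcripts that change without new protein can be told from later ones. The drug alone is known to raise many short-lived transcripts of the early stress and early auxin responses, which are normally held down by unstable repressors or by rapid decay. This comparison gives every change with CHX at 4 h without added auxin, both rises and falls. Neither repressors nor transcript decay was measured.

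Each sample was hybridised to its own 1-colour Affymetrix array, and levels are given as log2(intensity + 16), a scale whose lowest possible value is 4. The median level of an array lay between 7.59 and 7.68, and both replicates of a group correlated across probe sets with a Pearson's r of 0.983 to 0.988. The labels call the replicates independent sets of RNA samples and say no more of their origin, so p-values measure the spread between these samples. Of the root and green tissue markers looked up, 5 were measured by name, with none for the stele, root cap or quiescent centre. PYK10, the β-glucosidase of root ER bodies, had a mean of 13.78 in the 4 CHX arrays and 14.69 in the 4 arrays without CHX, and the green tissue marker RCA had 8.61 and 9.30. RCA was the only green tissue marker of that list measured by name. Outside the list, the chlorophyll-binding genes LHCB4.1, LHCB4.2 and LHCB4.3 had changes of -0.03, 1.52 and -0.82 (limma adjusted p 0.872, 5.89e-07 and 0.00636). Without detection calls these signals do not settle whether green tissue was present. The root hair expansins EXPA7 and EXPA18 had changes of -0.18 (limma adjusted p 0.209) and -1.16 (limma adjusted p 1.65e-08), and the endodermal receptor kinase GSO1 had 0.32 (limma adjusted p 0.00573), a call that was lost with only CHX against mock (limma adjusted p 0.125). In whole roots, fewer cells of a type and less RNA per cell cannot be told apart. The ratio of 3′ to 5′ probe sets for the GAPDH control transcript was 0.951 to 0.984 in CHX arrays and 1.02 to 1.14 in arrays without CHX, for actin 2.13 to 2.74 and 2.74 to 3.45, and for ubiquitin 1.19 to 1.48 and 1.11 to 1.28. The GAPDH ratio was lower in every CHX array than in every array without CHX, the actin ranges met at 2.74 and the ubiquitin ranges overlapped. The part of these ratios in the results was not tested.

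CHX changed most of the measured transcripts by the test used. Of 22746 probe sets, 6668 rose (29.3%) and 7779 fell (34.2%) at a limma adjusted p under 0.05. At least 2-fold changes numbered 3494 rises (15.4%) and 3758 falls (16.5%). The very large changes were mostly rises, since 524 probe sets rose at least 16-fold (2.3%) and 130 fell at least 16-fold (0.572%). All 4 CHX arrays lay above all 4 others for 6169 probe sets (27.1%) and below them for 7403 (32.5%).

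The levels of the largest changes are given as a description, since on a scale with a floor of 4 the 16-fold bound itself limits the level that a rise or a fall can start at. The 524 probe sets that rose at least 16-fold had a median level of 11.9 with CHX and 6.06 without it, and 131 of them (25%) had a mean under 5 in the arrays without CHX, near the lower end of the scale, where 19.8% of all probe sets lay. The 130 that fell at least 16-fold had a median of 6.1 with CHX and 11.1 without, and 26 of them lay under 5 with CHX. With probe sets put into 10 equal bins by mean level over the 8 arrays, the highest bin (10.4 to 15.2) held 63.3% that fell and 30.2% that rose, with a median change of -0.63. In the lowest bin (4.03 to 4.63) 1.05% fell and 3.74% rose, but a mean so near the floor of 4 leaves little room for a difference between the arms. The scaling sets every array to a common level, so a loss of total mRNA would not show, and all changes are relative to that level.

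**Figure D1:**
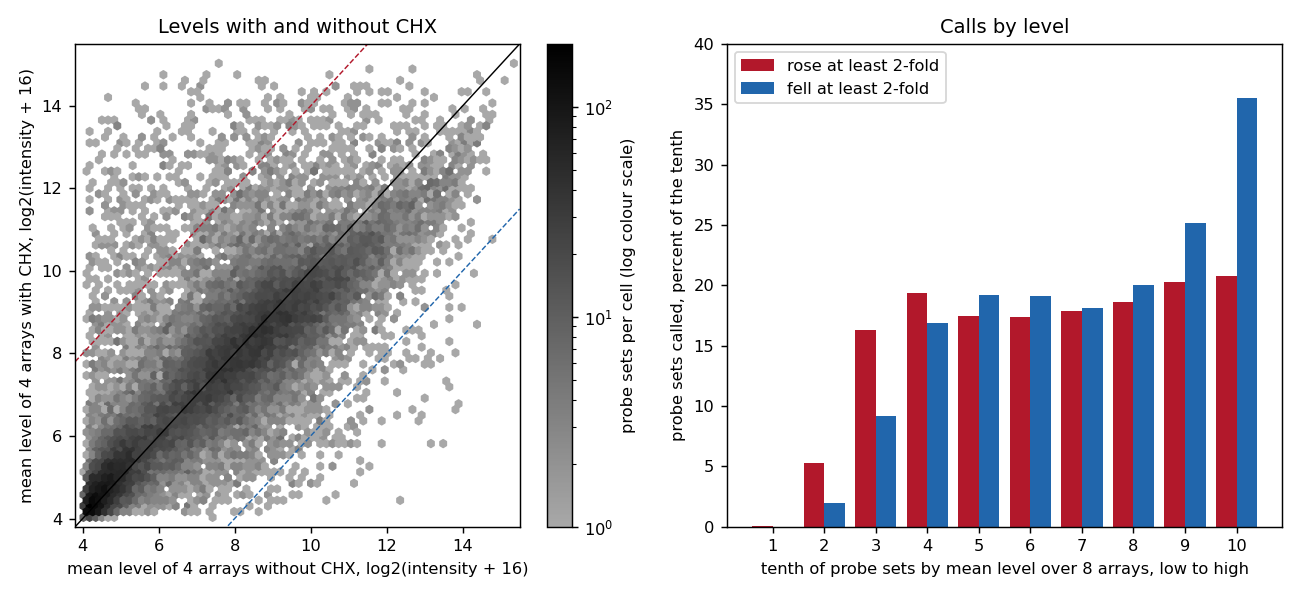
Left, the mean level of each probe set in the 4 arrays with CHX (vertical axis) against the mean in the 4 arrays without CHX (horizontal axis), both as log2(intensity + 16), with grey shade for the number of probe sets, a solid line at equality and dashed lines at 16-fold. Right, the percent of probe sets in each of 10 equal bins of mean level that were called and rose (red) or fell (blue) at least 2-fold, with 35.5% falling and 20.8% rising in the highest bin.

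The largest rises were of transcripts with low levels in the arrays without CHX, and rises of this size can only start low on this scale. For the 15 genes with the largest rise, the arrays with CHX held 12.36 to 14.71 and those without held 4.08 to 6.32, and 9 of the 15 had a mean under 5 without CHX. The annotation names 2 of the 15 by more than a locus number, and no role is given here for the others. BGLU27, of the β-glucosidase family that frees glucose from glucosides, had 13.38, 13.27, 13.32 and 13.19 in the arrays of CHX 1, CHX 2, DEX+CHX 1 and DEX+CHX 2, against 4.84, 4.17, 4.81 and 4.37 in mock 1, mock 2, DEX 1 and DEX 2. It rose by 8.74 (SE 0.139, limma adjusted p 7.05e-14). NDB4, an alternative NAD(P)H dehydrogenase of mitochondria, had 12.95, 12.55, 12.63 and 12.90 with CHX, against 4.56, 4.33, 4.30 and 4.58 without, in the same order of arrays. The NDB4 rise was 8.32 (SE 0.115, limma adjusted p 2.70e-14). For both genes, as for all 15, separation of the CHX arrays from the others was part of the rule that chose them.

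Among the genes known by locus only, AT1G10875 had 13.62, 13.38, 13.38 and 13.13 with CHX, against 4.16, 4.11, 4.24 and 4.17 without. Its rise of 9.21 (SE 0.0994, limma adjusted p 5.98e-15) was the largest of any named gene. In unlogged intensity it measured 8940 to 12600 in the CHX arrays and 1.24 to 2.88 in the others, so its size on the log2 scale depends on the added 16. With an added 1 the rise came to 11.82, and with an added 64 to 7.34. AT3G54520 rose by 9.20, AT2G04070 by 8.83, AT2G23270 by 8.81, AT1G22810 by 8.74 and AT2G04050 by 8.62. The other 7 were AT1G74870 (8.58), AT5G43450 (8.45), AT2G37810 (8.36), AT5G52760 (8.29), AT2G25735 (7.94), AT5G52750 (7.86) and AT3G54150 (7.78), with adjusted p-values over the 15 of at most 1.08e-12 in limma. AT2G23270 and AT5G43450 had means of 14.47 and 14.51 with CHX, against 5.66 and 6.06 without CHX. Probe sets with no gene in the annotation included rises as large, the 2 largest being 9.55 and 8.97.

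The largest falls took abundant transcripts down to the lower part of the scale, and falls of this size can only start from high levels. For the 15 genes with the largest fall, the arrays with CHX held 4.05 to 8.52 and those without held 9.56 to 14.06. The annotation gives 4 of them a name. MSRB5, a methionine sulfoxide reductase that repairs oxidised methionine, had 6.11, 4.70, 6.23 and 6.14 in CHX 1, CHX 2, DEX+CHX 1 and DEX+CHX 2, against 13.14, 13.22, 13.10 and 13.20 in mock 1, mock 2, DEX 1 and DEX 2. Its change was -7.37 (SE 0.246, limma adjusted p 4.60e-11), and CHX 2 lay below the other 3 CHX arrays. LCR69 and LCR68, small cysteine-rich secreted proteins of the defensin type, had changes of -6.35 (SE 0.122, limma adjusted p 3.11e-13) and -5.77 (SE 0.176, limma adjusted p 1.99e-11). LCR69 held 7.11, 7.02, 7.80 and 7.30 with CHX, against 13.66, 13.61, 13.83 and 13.52 without. CHIL, a chalcone isomerase-like protein of flavonoid synthesis, had a change of -5.69 (SE 0.103, limma adjusted p 2.01e-13).

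AT5G57785 had the largest fall, with 5.03, 4.05, 4.20 and 4.42 in the CHX arrays against 12.45, 12.35, 12.13 and 12.28 in the others. Its change was -7.88 (SE 0.17, limma adjusted p 8.41e-13), and with CHX it lay near the floor of the scale. The other 10 genes known by locus had changes of -7.26 (AT1G13930), -7.01 (AT4G23670), -6.44 (AT4G11190), -6.33 (AT3G53980), -6.03 (AT1G48750), -5.98 (AT5G62210), -5.51 (AT4G15390), -5.43 (AT3G62040), -5.28 (AT4G13580) and -5.25 (AT4G23680). AT1G13930 and AT4G23670 averaged 6.57 and 6.82 with CHX and 13.83 and 13.82 without it. The adjusted p-values over the 15 were at most 1.43e-09 in limma. The 2 probe sets with no gene in the annotation that fell most had changes of -7.76 and -6.42.

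**Figure D2:**
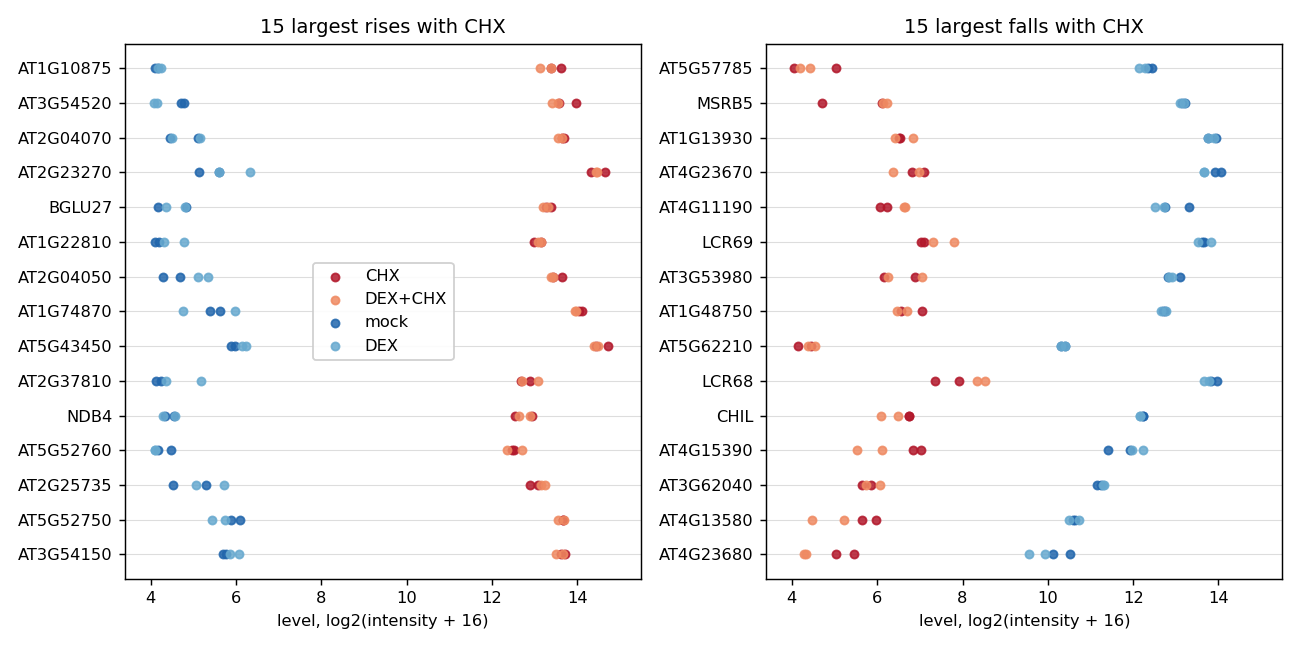
Level of each of the 15 genes with the largest rise (left) and the 15 with the largest fall (right) in single arrays, as log2(intensity + 16), with 2 points each for CHX (dark red), DEX+CHX (orange), mock (dark blue) and DEX (light blue). In the left panel the CHX arrays hold 12.36 to 14.71 and the others 4.08 to 6.32, and in the right panel 4.05 to 8.52 and 9.56 to 14.06.

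Gene families were read by symbol against all 13355 genes the annotation names singly, of which 3834 rose (28.7%) and 4122 fell (30.9%), with a median change of 0.03. These counts cover only members with a symbol in the annotation, not whole families. They are given where at least 3 members were measured, and a few genes of smaller groups are given singly. Falls were more frequent at high levels. In the bins of mean level from 8.84 to 9.46, 9.46 to 10.4 and 10.4 to 15.2, 46.1%, 53.9% and 63.3% of all probe sets fell. Counts of falls in families with high levels are to be read beside these shares.

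Of the 7 WRKY transcription factors measured by name, 5 rose, none fell and 2 were not called, with a median of 0.75. WRKY53, a regulator of leaf senescence and defence, had 12.74, 12.60, 12.76 and 12.69 in the arrays of CHX 1, CHX 2, DEX+CHX 1 and DEX+CHX 2, against 6.32, 6.28, 6.47 and 6.19 in mock 1, mock 2, DEX 1 and DEX 2. It rose by 6.38 (SE 0.0764, limma adjusted p 9.88e-15). WRKY22, a factor downstream of immune MAP kinases, rose by 4.46 (SE 0.102, limma adjusted p 1.42e-12), and WRKY6 rose by 3.04. STZ, a zinc finger repressor of the stress response and the 1 C2H2 gene measured by these names, rose by 7.33 (SE 0.106, limma adjusted p 3.53e-14), to a mean of 14.46 with CHX, against 7.13 without.

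Of 20 bZIP genes, 10 rose and 2 fell, with a median of 0.41. BZIP60, a factor of the unfolded protein response in the endoplasmic reticulum, had 14.41, 14.44, 14.34 and 14.08 with CHX, against 9.63, 9.81, 9.74 and 9.88 without, a rise of 4.55 (SE 0.0875, limma adjusted p 3.18e-13). BZIP34 rose by 2.54, BZIP61 by 2.34 and BZIP53 by 1.40, and bZIP58 fell by 1.28. Among 6 AP2/ERF genes 3 rose, namely TINY2 (1.81), PUCHI (1.33) and BBM, and 2 fell, namely tny (-2.25) and SMZ (-0.85).

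Of the GH3 enzymes, which join auxin and other acids to amino acids, 4 of 5 measured by name rose, with a median of 1.45. GH3.3 had 11.94, 12.05, 11.97 and 12.04 in the CHX arrays, against 5.83, 6.20, 6.25 and 6.22 in the others, and rose by 5.88 (SE 0.0927, limma adjusted p 6.58e-14). GH3.1 rose by 4.85, GH3.9 by 1.45 and WES1 by 0.93, while GH3.17, which was already at 10.89 without CHX, fell by 0.89. Of 7 Aux/IAA genes, which encode repressors of auxin-responsive transcription, 4 rose, 1 fell and 2 were not called. IAA30 rose by 3.50 (SE 0.102, limma adjusted p 1.35e-11), IAA29 by 1.62 and IAA20 by 1.25, and IAA33 fell by 1.22. The lateral root factors LBD29 and LBD16 rose by 1.93 and 1.38. In the arrays with NAA the CHX changes of LBD29 and LBD16 were -2.75 and -0.51. There 4 of the 5 GH3 genes fell and 1 rose, with a median of -1.25, and 3 Aux/IAA genes rose and 3 fell.

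Calcium-binding CML proteins, which decode calcium signals, rose in 6 of 8 cases, with a median of 2.19. CML37 had 12.86, 12.77, 13.02 and 13.02 with CHX, against 5.78, 5.97, 5.95 and 5.21 without, a rise of 7.19 (SE 0.147, limma adjusted p 5.34e-13). CML38 rose by 6.64 (SE 0.134, limma adjusted p 4.71e-13), CML42 by 3.88, CML23 by 2.47 and CML41 by 1.91. The IQD proteins, which bind calmodulin, were divided, with 7 of 15 rising and 4 falling. IQD22 rose by 4.08 and IQD30 fell by 1.58. RALF-like peptides, secreted signals that act through receptor kinases, mostly fell among those called, with 6 falls and 1 rise in 11. RALFL32 had 6.79, 6.92, 6.48 and 6.65 with CHX, against 11.63, 11.64, 11.58 and 11.52 without, a change of -4.88 (SE 0.078, limma adjusted p 7.08e-14), whereas RALFL33 rose by 2.02.

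U-box PUB ligases, which choose the proteins to be tagged with ubiquitin, rose in 6 of 9 cases, with a median of 2.70, and PUB49 fell by 0.28, a call that was lost with only DEX+CHX against DEX (limma adjusted p 0.126). PUB22, PUB23 and PUB24, which dampen immune signalling, rose by 3.32, 4.27 and 5.53. PUB24 had 11.98, 12.14, 12.23 and 12.17 in the CHX arrays, against 6.17, 6.80, 6.82 and 6.62 in the others (SE of the change 0.119, limma adjusted p 8.17e-13). PUB26 and PUB25 rose by 3.12 and 2.70.

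Enzymes that conjugate or glycosylate small molecules held large changes in both directions. Of 51 UGT glycosyltransferases 14 rose and 21 fell, with a median of -0.10. UGT73B4 rose by 4.47 (SE 0.0719, limma adjusted p 7.27e-14), UGT71B6, which acts on abscisic acid, by 4.24, and UGT84B1, which acts on auxin, by 4.22. UGT84A1, of phenylpropanoid metabolism, had a change of -3.81 (SE 0.107, limma adjusted p 8.89e-12), and the flavonol enzyme UGT78D1 had -3.69. Tau-class glutathione transferases fell in 7 of 11 cases and rose in 3. GSTU22 had 14.43, 14.61, 14.28 and 14.26 with CHX, against 11.22, 11.15, 11.11 and 11.16 without, a rise of 3.23 (SE 0.0729, limma adjusted p 1.21e-12), and GSTU25 rose by 3.08. GSTU20 had 7.83, 8.10, 7.85 and 7.94 with CHX, against 10.93, 11.06, 10.63 and 10.66 without, a change of -2.89 (SE 0.0867, limma adjusted p 1.68e-11).

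Beyond BGLU27, the β-glucosidases BGLU31 and BGLU32 also rose, and without CHX both lay near the floor of the scale. BGLU32 had 11.67, 11.56, 12.04 and 11.67 with CHX, against 4.05, 4.73, 4.13 and 4.03 without, and BGLU31 had 11.48, 11.26, 11.91 and 11.48, against 4.07, 4.08, 4.17 and 4.40. Their rises were 7.50 (SE 0.168, limma adjusted p 1.17e-12) and 7.35 (SE 0.124, limma adjusted p 1.06e-13). Of 22 members of the family 9 rose and 5 fell, and PYK10 had a change of -0.90 (limma adjusted p 8.01e-06). Aldehyde dehydrogenases, which oxidise reactive aldehydes, fell in 7 of 8 cases and rose in none, with a median of -0.89. Their median level without CHX was 11.3, and in the highest bin of level 63.3% of all probe sets fell, with a median change of -0.63. ALDH7B4 had 9.78, 9.79, 9.75 and 9.70 with CHX, against 11.65, 11.65, 11.61 and 11.58 without, and its change was -1.87 (SE 0.0537, limma adjusted p 1.13e-11). The cytochrome P450 CYP84A4 rose by 4.98 (SE 0.0701, limma adjusted p 3.10e-14) in a family of 23 with 7 rises and 5 falls. The efflux carrier gene AT5G52050, known as DTX50, rose by 7.52 (SE 0.148, limma adjusted p 3.83e-13), to a mean of 11.94 with CHX, against 4.42 without.

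Cell wall families did not move as units. XTH enzymes, which cut and rejoin xyloglucan, rose in 6 of 10 cases and fell in 3. XTH18 had 14.50, 14.25, 14.39 and 14.16 with CHX, against 10.10, 10.15, 9.94 and 10.30 without, a rise of 4.21 (SE 0.0933, limma adjusted p 1.07e-12), and XTH32 had a change of -4.01 (SE 0.147, limma adjusted p 1.05e-10). Among 19 expansins and expansin-like proteins, which loosen walls, 5 rose and 5 fell. The A-type expansin-like genes EXLA3, EXLA2 and EXLA1 rose by 5.96, 3.67 and 1.67, and EXPB3 and EXLB1 had changes of -3.20 and -2.66. TBL proteins, which acetylate wall polymers, fell in 11 of 23 cases and rose in 6, led by TBL30 (-3.08) and TBL36 (-2.76) and by TBL34 (1.96). Of 15 glycosyl hydrolases of family 9, 6 fell and 2 rose, led by GH9C2 (-2.40) and GH9B7 (-2.25).

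Of 15 measured genes with the symbol stem LCR or PDF, 7 fell and 2 rose, with a median of -0.48. Most encode defensins, but the stem also took in PDF1A (-1.24) and PDF1B (-0.77), which encode peptide deformylases. The counts and median are therefore not of defensins alone. After LCR69 and LCR68 the next defensins were PDF2.1 (-3.39) and PDF2.5 (-2.41), while LCR59 rose by 3.20, with a mean of 4.31 without CHX. The jacalin-related lectins JAL33 and JAL22 are of the group that associates with PYK10. Their changes were -4.69 (SE 0.0877, limma adjusted p 2.55e-13) and -4.45 (SE 0.0571, limma adjusted p 1.61e-14). JAL33 held 8.75, 9.04, 9.04 and 8.68 with CHX, against 13.64, 13.65, 13.47 and 13.52 without. JAL34 had -0.99, and JAL23 had -0.69 (limma adjusted p 0.0181), a call that was lost without mock replicate 2, DEX replicate 1 or CHX replicate 2 (limma adjusted p 0.0533, 0.0636 and 0.0529). These 2 families were added to the list after the largest falls had been seen, so their counts carry no weight of their own.

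Subunits of nuclear RNA polymerases fell in 7 of 12 cases and rose in none, with a median of -0.55, led by NRPB6B (-1.10) and NRPB9B (-0.95). Histone genes went the other way in 5 of 7 cases. The linker histone-type gene HON4 had a rise of 1.13 (SE 0.0595, limma adjusted p 3.37e-09). HTB1 and HTB2, which encode H2B, rose by 0.79 and 0.76. The histone gene HIS1-3 had a change of -1.31 (limma adjusted p 0.00297), a call that was lost with only CHX against mock (limma adjusted p 0.0706). The centromeric histone HTR12 had a change of -0.63, and the mitotic kinases AUR2 and AUR1 had -1.53 and -1.06. For the translation machinery few genes had a name of their own. EIF4A-2, an RNA helicase of translation initiation, had a change of -1.47, and the nuclear helicase PRH75 had -1.30.

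Transcripts of the plastid genome fell broadly and by modest amounts. Of 69 plastid-encoded genes measured, 56 fell (81.2%), none rose and 13 were not called, with a median of -0.82. The plastid intron maturase matK had 8.88, 9.31, 9.26 and 8.37 with CHX, against 10.87, 11.65, 11.05 and 11.24 without, a change of -2.25 (SE 0.196, limma adjusted p 4.42e-07). The Rubisco large subunit gene rbcL had 7.40, 7.51, 7.40 and 7.30, against 9.59, 9.57, 9.54 and 9.43, a change of -2.13 (SE 0.0819, limma adjusted p 1.70e-10). The falls ran through all the complexes, with 6 of 6 genes of the ATP synthase, 13 of 15 of the plastid ribosome, 11 of 15 of photosystem II, 8 of 10 of the NDH complex, 3 of 5 of photosystem I, 4 of 6 of the cytochrome b6f complex and 3 of 4 of the plastid RNA polymerase. Plastid transcripts are made as long units that hold several genes, so these genes are not independent of each other. Of 16 mitochondrion-encoded genes 6 fell and none rose, with a median of -0.35, among them nad4 (-1.08) of respiratory complex I and cox1 (-0.87) of cytochrome c oxidase. Most plastid and mitochondrial transcripts lack the long poly(A) tail that this 3′ labelling primes from, and the part of that in these values was not tested.

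**Figure D3:**
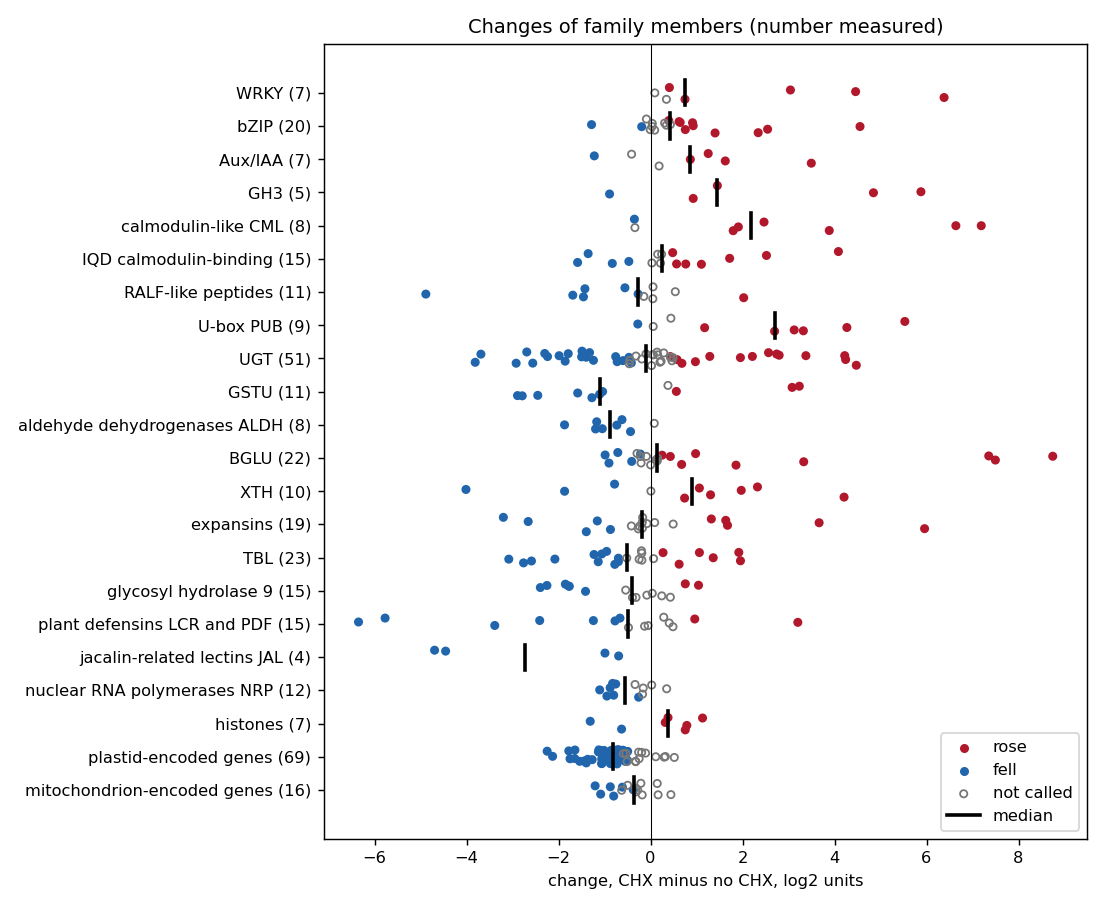
Change of each measured member of 22 gene families with CHX (horizontal axis, CHX minus no CHX in log2 units), with the number of members after each family's name. Filled points rose (red) or fell (blue) at an adjusted p under 0.05, open points were not called, and black bars are medians, which run from -2.72 for the jacalin-related lectins to 2.70 for the U-box ligases. The row of plant defensins also holds the peptide deformylase genes PDF1A and PDF1B.

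Some of the largest changes lay side by side on the chromosome. With a run defined, after the values were seen, as at least 3 genes that each changed at least 8-fold in the same direction with at most 3 protein-coding genes between neighbours, there were 8 rising and 2 falling runs among 515 rising and 149 falling named genes of that size. The longest lay on chromosome 5 from AT5G52670 to AT5G52760, where all 8 genes measured by name among the 10 spanned had risen, by 3.75 to 8.29. AT5G52670 had 12.26, 12.27, 12.62 and 12.34 in CHX 1, CHX 2, DEX+CHX 1 and DEX+CHX 2, against 4.22, 4.83, 4.72 and 4.68 in mock 1, mock 2, DEX 1 and DEX 2. At the other end AT5G52760 had 12.46, 12.51, 12.71 and 12.36, against 4.18, 4.49, 4.11 and 4.10. Between them AT5G52690 reached only 7.87 to 8.45 with CHX, against 4.10 to 4.64 without. The means of the 8 genes without CHX lay between 4.22 and 5.79.

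BZIP60 stood in a second run, between AT1G42980 and AT1G43000, with rises of 5.18, 4.55 and 4.05 in chromosome order. AT2G32020 and AT2G32030 rose by 7.50 and 6.89 beside AT2G31990 at 3.18, and AT3G28580 and AT3G28610 rose by 7.58 and 7.22 on either side of AT3G28600 at 3.95. The falling runs were LCR69, PDF2.1 and LCR68 on chromosome 2, and AT5G37990 (-3.75), AT5G38020 (-3.89) and AT5G38030 (-3.52) on chromosome 5. None of the probe sets of these runs carries a suffix that marks probes shared between genes. Whether such runs are more frequent than gene order alone would give was not tested.

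**Figure D4:**
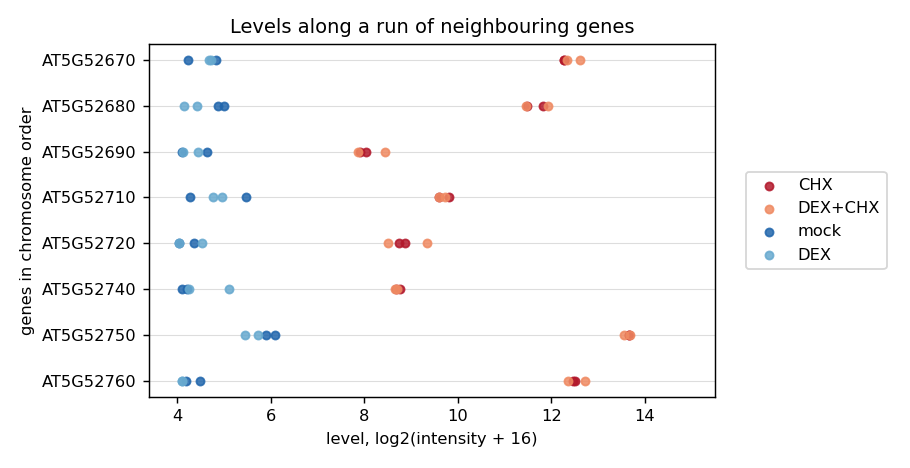
Level of the 8 genes measured between AT5G52670 and AT5G52760, in chromosome order from top to bottom, in single arrays as log2(intensity + 16), with 2 points each for CHX (dark red), DEX+CHX (orange), mock (dark blue) and DEX (light blue). The means without CHX lie between 4.22 and 5.79, and the rises range from 3.75 for AT5G52690 to 8.29 for AT5G52760.

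No dependence of the CHX change on DEX was called. No probe set was called for the interaction of CHX with DEX in limma (0%), with 1205 at an unadjusted p under 0.05, and other settings of the same tool called 0 to 4. DEX+CHX against DEX called 5655 rises and 7040 falls, and CHX against mock 5782 and 6815. Among the 15 largest rises the interaction value ran from -0.87 to 0.36, and among the 15 largest falls from -1.54 to 0.98. The gene at -1.54 was AT4G15390, which changed by -6.28 in the arrays with DEX and by -4.74 in those without (limma adjusted p of the interaction 0.889). A p that misses the threshold does not show that the changes were equal.

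With NAA present, CHX called 6564 rises (28.9%) and 7914 falls (34.8%) in 8 other arrays. Across the 22746 probe sets the change with NAA and the change without had a Pearson's r of 0.908. The points of this r are probe sets, and they do not stand for replicates. Of the 524 probe sets that rose at least 16-fold without NAA, 520 also rose with it, and of the 130 that fell as much 126 also fell. The median change of these sets was 5.05 with NAA and 5.23 without for the rises, and -3.79 and -4.71 for the falls. The sets were chosen by their change without NAA, so smaller medians with NAA and calls for a difference are favoured by that choice. The interaction of CHX with NAA, which is the test of the difference, was called for 5527 probe sets (24.3%), for 232 of the 524 and for 91 of the 130. All 30 genes named above for the largest changes were called in the same direction with NAA.

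Named next are 6 genes picked for the size of their interaction, 3 in each direction, and PUCHI. GH3.3 averaged 12.00 with CHX and 6.12 without CHX in roots without NAA, while with NAA it averaged 13.24 with CHX and 14.49 without, so the CHX change was -1.25 with NAA and 5.88 without it, and the interaction was -7.13 (SE 0.123, limma adjusted p 1.35e-15). GH3.1 (interaction -5.25) and IAA29 (-5.05) followed. PUCHI had 8.79, 8.74, 8.51 and 8.84 in CHX 1, CHX 2, DEX+CHX 1 and DEX+CHX 2, against 7.89, 7.72, 7.06 and 6.91 in mock 1, mock 2, DEX 1 and DEX 2. It rose by 1.33 (SE 0.151, limma adjusted p 5.74e-06), against a change of -2.10 with NAA, an interaction of -3.43. The PUCHI probe set does not tell the fusion transcript from that of the mutant gene. In the other direction AT4G30450 had 6.04 with CHX and 11.27 without in the absence of NAA, and 6.04 and 6.06 in its presence, an interaction of 5.21 (SE 0.202, limma adjusted p 1.65e-11), ahead of AT2G34610 (4.65) and AT1G19900 (4.42). Counts over all probe sets were alike in size, since 240 rose without NAA and fell with it, and 203 did the reverse, out of 12224 called in both.

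**Figure D5:**
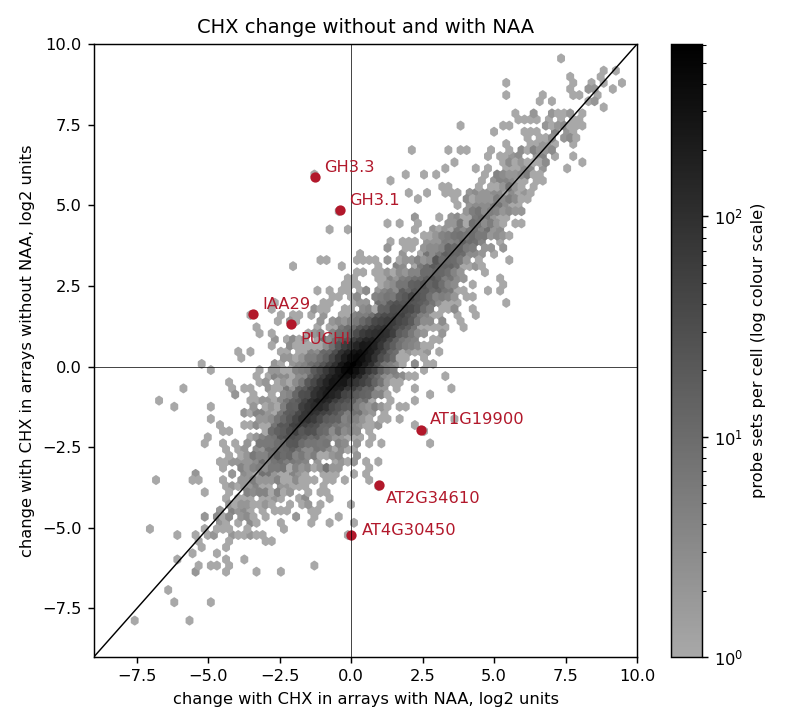
Change of each probe set with CHX in the arrays without NAA (vertical axis) against the change in the arrays with NAA (horizontal axis), both in log2 units, with grey shade for the number of probe sets and a line at equality. Red points mark PUCHI and the 6 genes with the largest interaction, among them GH3.3 at 5.88 without NAA and -1.25 with it.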

How the data were processed

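Biotin-labelled cRNA from each of 16 root samples was hybridised to a 3′ expression array of Affymetrix. Expression Console 1.3 made the signals, per the submitters' processing notes, by an algorithm not given in the sources used here. Each deposited value is an intensity on a linear scale. All 16 arrays were found to share a mean of 500 once the top and bottom 2% of values were dropped, a scaling by the authors. No detection calls were used, and precision is limited by how few arrays there were.

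Of 22810 probe sets, 64 controls were left out and 22746 tested. The platform annotation names 1 gene for 13513, several for 503 and lists none for 8730. Symbols were updated through the gene ID for 13436 from the TAIR10.1 gene table, which gave neighbour order too. A gene with several probe sets (147 genes) is represented by the one with the highest mean. Clauses on what a gene does are general knowledge.

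Values were taken as log2(intensity + 16), which understates changes of low genes. limma 3.58.1 in R 4.3.3 fitted DEX state and CHX over the 8 arrays without NAA (5 residual and 6.63 prior degrees of freedom, variance prior following the level), the same with NAA, and 1 mean per group for the interactions (4 residual degrees of freedom for DEX, 8 for NAA). Tests are 2-sided, and a call needs an adjusted p (Benjamini-Hochberg) under 0.05. Changes are CHX minus no CHX. The fits were tested on simulated data. Deviations of arrays with the same replicate number correlated by -0.046 to 0.031, so numbers were not taken as pairs.

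The comparison, members and gene lists were chosen with earlier results of these data known, and several family stems (bZIP, IQD, RALF-like, ALDH, glycosyl hydrolase 9, NRP and others) were added after the files were seen, by the number of members. Of 65 families searched, 11 had no named member and 41 had at least 3, of which some are not reported here. Named are, in each direction, the 15 genes that changed most among those called whose 4 CHX arrays lie beyond the 4 others, up to 5 called members of a family, 3 genes per direction of interaction, 2 unnamed probe sets per direction, members of neighbour runs, and PUCHI.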

Additional observations from a re-analysis of the deposited data

Results flagged for a closer look

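MSRB5 had 1 array apart from the rest of its arm: CHX 2 stood at 4.70, against 6.11 to 6.23 in the other 3 CHX arrays. This was 1 of 62 arms of 4 arrays examined, over 31 genes, and chance alone marks about 1 arm in 20.

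A difference between the CHX changes with and without NAA was called for 16 of the 30 genes with the largest changes, and for 24.3% of all probe sets. It is given here as the change with NAA minus the change without it. Among the rises it was -1.11 for AT2G04070, -1.72 for AT5G43450, -0.76 for AT2G25735, -0.75 for AT5G52750 and -0.83 for AT3G54150, all smaller rises with NAA. Among the falls it was 2.30 for AT5G57785, 2.36 for MSRB5, 1.0 for AT1G13930, 2.05 for AT4G11190, 0.85 for LCR69, 3.84 for AT3G53980, 2.22 for AT1G48750, 1.01 for CHIL, 2.60 for AT3G62040, 1.27 for AT4G13580 and 1.14 for AT4G23680, all shallower falls with NAA. The 30 genes were chosen for the size of their change without NAA, and that change enters the difference. The choice itself therefore favours smaller changes with NAA, and no conclusion is drawn from the shared direction or the count. PUCHI differed by -3.43. The largest differences over all genes called were -7.13 for GH3.3, -5.25 for GH3.1 and -5.05 for IAA29, and 5.21 for AT4G30450, 4.65 for AT2G34610 and 4.42 for AT1G19900.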

How the results depend on the processing

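With an added minimum of a 2-fold change, CHX without NAA called 7252 probe sets (3494 rises, 3758 falls) in place of 14447, and CHX with NAA 7410 in place of 14478, by construction. The interaction of CHX with DEX, with 0 calls, had 3 when only the 60% brightest probe sets were tested, 4 with a pseudocount of 1 and 2 with all 16 arrays in the fit, and the cause was not tested. Quantile normalization gave 6099 rises and 8230 falls, with a median change of all probe sets of -0.0996, against -0.00707. It turned the sign of the median in 2 of 41 families, neither of them described above. Leaving out each array gave 13777 to 14092 calls for CHX without NAA (6251 to 6532 rises, 7489 to 7676 falls), 0 for the DEX interaction, 13854 to 14182 for CHX with NAA and 4960 to 5256 for the NAA interaction. With the replicate number as a block there were 14378 calls without NAA, 0 for the DEX interaction, 14432 with NAA and 5510 for the NAA interaction. In these 4 comparisons the counts under the other alternatives stayed within 1.5 times those reported. Of 205 genes followed over 19 alternatives none reversed. The 30 genes with the largest changes kept their calls in all of them. CML43, which fell by 0.35, lost its call in 6 alternatives beside the 2-fold minimum, and so did JAL23. BGLU40 (limma adjusted p 0.169) and HIS1-3 (0.0706) lost theirs with only CHX against mock, and IAA34 (0.336) with only DEX+CHX against DEX. The plastid gene psbM, counted among the photosystem II falls, lost its call in both of these (limma adjusted p 0.112 and 0.0672). It also lost it with all 16 arrays in the fit (limma adjusted p 0.0902). Levels near 4 limit what can be said of size: over the 15 largest rises an added 1 gave 8.21 to 11.82 and an added 64 gave 6.46 to 7.84.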

Other observations

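Other families with at least 3 named members showed values not given above. Over all named genes 28.7% rose and 30.9% fell, and no family trait is read from the counts here. Of 11 autophagy ATG genes 6 fell and 2 rose, with ATG8E rising by 2.29 while its relative ATG8B had a change of -2.01, both of the ubiquitin-like proteins that mark autophagic membranes. The ATG genes had a median level of 10.1 without CHX, and in the level bin from 9.46 to 10.4, 53.9% of all probe sets fell. Serine carboxypeptidase-like genes fell in 12 of 29 cases and rose in 7, led by scpl30 at 5.40 and scpl31 at -3.03. SWEET sugar transporters rose in 6 of 16 cases and fell in 2, led by SWEET14 at 1.85 and SWEET17 at -1.86. Among 12 nitrate and phosphate transporter genes 4 rose and 2 fell, with AT1G59740, known as NPF4.3, at 3.06 without NAA and -0.26 with it, and AT2G26690 at -3.03 and -1.94. Of 8 glutamate receptor genes 3 rose and 2 fell, with changes from -1.06 (GLR3.6) to 2.63.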
